A study of Mus musculus with 12 samples.

Results

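The intracellular fibroblast growth factor homologues and the voltage-gated sodium channel genes of the brain were followed through 12 mouse RNA-seq libraries of an Srsf10 study. The genes were taken by symbol: Fgf11, Fgf12, Fgf13 and Fgf14, the channel genes Scn1a, Scn2a, Scn3a and Scn8a for pore-forming alpha subunits, and Scn3b for an auxiliary beta subunit. Of these 9 genes, 8 were measured among the 34102 genes of the count table, and Scn2a was not analysed here. The set was chosen by measured values: Fgf13 and Fgf14 lay among the larger rises of an earlier analysis of the progenitor comparison. The progenitor differences of the members are therefore given as description, with no test, and the tests are of the cortex comparison and of the control cells against each other.

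Sodium channel alpha subunits form the pore that carries the rising phase of the action potential, and beta subunits alter the gating and surface level of the pore. The homologues Fgf11 to Fgf14 resemble secreted fibroblast growth factors but lack a signal for secretion. They stay in the cell, bind the C-terminal tail of sodium channel alpha subunits and shift their inactivation, and they collect with the channels at the axon initial segment of neurons. Several of these genes use alternative first exons, which a single count per gene cannot tell apart.

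All mice and cells carried the C57BL/6 strain label. The 2 cortex groups had Srsf10 flox/flox, without Nestin-Cre (control) or with it (labelled cKO), and Nestin-Cre drives recombination in neural progenitors and the neurons and glia that descend from them, so Cre was carried by the cKO group alone and no Cre-only group is among the samples used here. The other 2 groups were primary cultured neural progenitor cells (NPC) labelled WT (control) or SRSF10 knockdown, grown in suspension with 20 ng/μl bFGF and 20 ng/μl EGF as the labels give it, infected with lentivirus at a multiplicity of 30 and collected 72 h after infection. The labels do not say which virus the control cells received. Each group had 3 libraries. Neither the labels nor the table give the age of the mice or say whether each library came from its own animal or culture, so p-values measure only the spread between these libraries.

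In the mm10 annotation Fgf11 lies at chr11:69796068-69801857, Fgf12 at chr16:28160098-28753068, Fgf13 at chrX:59062145-59568071 and Fgf14 at chr14:123977907-124677127, all on the minus strand. Scn1a (chr2:66270778-66440840) and Scn3a (chr2:65457118-65567627) lie in the same cluster of alpha subunit genes, on the minus strand, and Scn8a (chr15:100869858-101045938) and Scn3b (chr9:40269217-40291618) lie on the plus strand. Counts were taken over whole genes.

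Library totals ran from 26074094 to 36713205 counts. Srsf10, the targeted gene, gave 205 ± 12.4 CPM (counts scaled to a common library total) for control and 213 ± 20.1 CPM for cKO cortex, and 232 ± 12.4 CPM for control and 226 ± 12.0 CPM for knockdown NPC (SD, n = 3 each). Its counts therefore do not separate the groups (edgeR adjusted p = 0.917 in cortex and 0.774 in NPC), and directions rest on the library labels. These counts span all exons and say nothing of the floxed part alone or of the protein. In control cortex all 12 listed neuronal markers were present, with a summed level of 9562 to 9889 CPM, against 505 to 613 CPM in control NPC. The 8 progenitor markers summed to 1140 to 1299 CPM in control cortex and 9307 to 9560 CPM in control NPC. Cortex control replicate 2 and cKO replicate 3 were rich in Ttr, a choroid plexus transcript (1194 and 1082 CPM).

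The start regions of Fgf11, Fgf13 and Fgf14 are shown because these 3 genes had the largest progenitor differences. For each gene the RefSeq start nearest to the start of the GENCODE gene was taken (build GRCm38.p6, all 3 on the minus strand), 300 bases printed 5′ to 3′, with CAGCTG in capitals. This hexamer is an E-box, a kind of sequence bound by basic helix-loop-helix factors.
Fgf11, chr11:69802231-69802530: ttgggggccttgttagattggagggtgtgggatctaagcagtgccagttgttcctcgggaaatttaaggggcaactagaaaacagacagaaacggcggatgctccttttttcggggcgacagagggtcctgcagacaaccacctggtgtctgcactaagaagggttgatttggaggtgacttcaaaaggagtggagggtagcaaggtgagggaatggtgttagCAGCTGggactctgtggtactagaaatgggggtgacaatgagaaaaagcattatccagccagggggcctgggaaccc
Fgf13, chrX:59567299-59567598: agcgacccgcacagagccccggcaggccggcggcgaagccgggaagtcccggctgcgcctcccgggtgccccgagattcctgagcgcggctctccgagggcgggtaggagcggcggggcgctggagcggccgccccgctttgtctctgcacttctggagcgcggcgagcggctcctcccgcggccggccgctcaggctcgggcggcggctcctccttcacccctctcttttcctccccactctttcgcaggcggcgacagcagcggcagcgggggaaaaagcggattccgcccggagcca
Fgf14, chr14:124192497-124192796: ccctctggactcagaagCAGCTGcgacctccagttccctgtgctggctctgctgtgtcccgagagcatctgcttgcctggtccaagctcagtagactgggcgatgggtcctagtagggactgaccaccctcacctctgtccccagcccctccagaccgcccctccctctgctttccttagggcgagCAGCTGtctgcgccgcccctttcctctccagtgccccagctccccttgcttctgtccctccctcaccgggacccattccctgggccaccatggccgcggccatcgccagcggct

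The Fgf14 region holds CAGCTG 2 times, starting 233 and 64 bases before the transcription start, the Fgf11 region holds it 1 time, 27 bases before the start, and the Fgf13 region shown does not hold it. Of 32851 start regions of the same length, 16.3% hold CAGCTG, which reads the same on both strands. The regions differ in composition: the Fgf13 region has 74.3% G and C with 40 CpG dinucleotides, the Fgf14 region 65.7% with 12, and the Fgf11 region 52.3% with 5, beside a median of 52.7% and 7 over all regions. The GC box GGGCGG, searched on both strands, lies 4 times in the Fgf13 region, 2 times in the Fgf14 region and not in the Fgf11 region (35.7% of all regions hold it). The half-sites TCAGCACC and GGACAGCG of the neuron-restrictive silencer element and the cyclic AMP element TGACGTCA are in 1.65%, 1.26% and 1.79% of all regions, on either strand, and in none of the 15 listed start regions of the 7 members that matched (Fgf11 to Fgf14, Scn1a, Scn2a and Scn8a). The transcription start within the Fgf14 region shown lies 484581 bases inside the GENCODE gene, which begins at a more distant first exon.

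The level of each member was compared between the control groups first. All 8 genes were higher in control cortex than in control NPC. For every member the lowest of the 6 cortex libraries lay above the highest of the 6 NPC libraries. By the quasi-likelihood test of edgeR all 8 passed an adjusted p of 0.05 as higher in cortex, where 40.5% of the 15676 genes tested did. Cortex was tissue with neurons and NPC was a culture, and whether both were counted alike was not tested, so cell makeup, culture and handling cannot be told apart. In bulk libraries fewer cells of a type and less RNA per cell cannot be told apart either.

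The size of that difference varied widely among the members. Fgf13, an X-linked homologue that also binds microtubules, stood at 210, 220 and 210 CPM in the control cortex libraries and at 5.74, 5.64 and 4.59 CPM in the control NPC libraries. The log2 difference was 5.30 (SE 0.10, edgeR adjusted p = 4.02e-10), or 39.5-fold. Scn3a, an alpha subunit known for high expression before birth, read 166, 214 and 208 CPM against 3.65, 4.53 and 5.77 CPM (log2 difference 5.37, SE 0.17, edgeR adjusted p = 4.59e-09). These 2 genes thus differed by about the same amount. Scn1a, the alpha subunit Nav1.1, read 42.4, 48.5 and 51.2 CPM against 2.34, 0.920 and 1.32 CPM (log2 difference 4.92, SE 0.27, edgeR adjusted p = 1.31e-07). Its NPC libraries held only 66, 24 and 39 counts in the control group.

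Smaller differences were found for the other members. Scn3b, the beta subunit, read 352, 348 and 350 CPM in control cortex and 40.3, 41.3 and 43.2 CPM in control NPC (log2 difference 3.05, SE 0.07, edgeR adjusted p = 8.46e-10). Fgf14, the homologue mutated in a spinocerebellar ataxia, read 52.8, 62.7 and 58.0 CPM against 11.3, 11.5 and 11.9 CPM (2.30, SE 0.10, edgeR adjusted p = 4.02e-08). Fgf12 had a log2 difference of 1.72 (SE 0.14), Fgf11 of 1.65 (SE 0.12) and Scn8a, the alpha subunit Nav1.6 of mature axon initial segments, of 1.15 (SE 0.12). Scn8a thus had the smallest difference of the 8, with cortex controls at 111 ± 14.8 CPM and NPC controls at 49.0 ± 4.92 CPM (SD, n = 3 each).

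**Figure D1:**
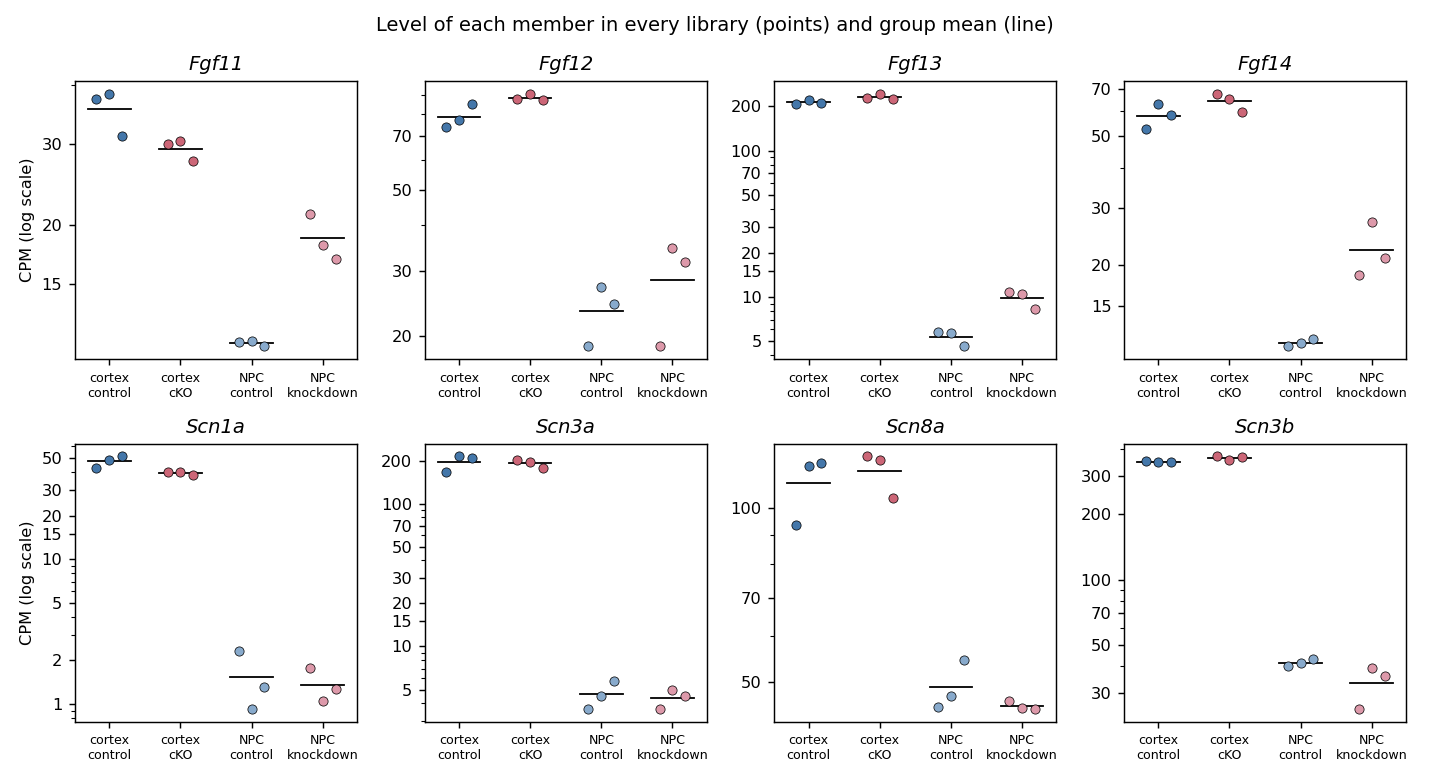
CPM of the library total (log axis, its range set separately for each gene) of the 8 measured members in each library (points, replicate 1 to 3 from left to right) by group, with the group mean as a line. Every cortex library lies above every NPC library for each gene, and Fgf11, Fgf13 and Fgf14 are higher in all 3 NPC knockdown libraries than in any NPC control library.

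Divided by the merged exon length of each gene, the levels of different members can be set side by side only roughly (CPM per kb). This length joins the exons of all annotated transcripts: 15766 bases for Scn8a, with 15 coding transcripts, and 3044 for Fgf11, with 2. Which transcripts were present was not measured, so the order between genes depends on this length. In control cortex Scn3b (64.1 ± 0.359 CPM per kb) and Fgf13 (53.1 ± 1.45 CPM per kb) stood apart at the top (SD, n = 3 each). They were followed by Scn3a (15.7 CPM per kb), Fgf14 (13.8 CPM per kb), Fgf12 (12.7 CPM per kb) and Fgf11 (11.7 CPM per kb), whose libraries overlapped from each gene to the next. Scn8a (7.02 CPM per kb) and Scn1a (4.25 CPM per kb) came last, each with no overlap with the gene above it. In control NPC Scn3b was again the highest (7.62 ± 0.269 CPM per kb), then Fgf12 (3.79 CPM per kb) and Fgf11 (3.67 CPM per kb), which overlapped each other. Scn8a followed (3.11 CPM per kb), then Fgf14 (2.76 CPM per kb), Fgf13 (1.32 CPM per kb), Scn3a (0.373 CPM per kb) and Scn1a (0.137 CPM per kb), with no overlap between neighbours. The order of these genes thus differs between the systems: Fgf13 is the second of 8 in cortex and the sixth in NPC.

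As a share of the summed CPM per kb of the 4 homologues, Fgf13 made up 58.1 ± 0.438% in control cortex and 11.5 ± 1.64% in control NPC (SD, n = 3 each). Fgf11 and Fgf12 together made up most of the NPC sum, with 31.9 ± 1.92% and 32.7 ± 4.15%. Among the 4 measured channel genes, Scn8a made up 7.69 ± 0.786% in control cortex and 27.6 ± 1.19% in control NPC. Scn3b held a like share in both (70.4 ± 2.77% and 67.8 ± 1.44%). Scn2a is not part of these sums. The alpha subunit genes are close relatives in sequence, and the treatment of reads matching several of them is not stated in the labels.

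**Figure D2:**
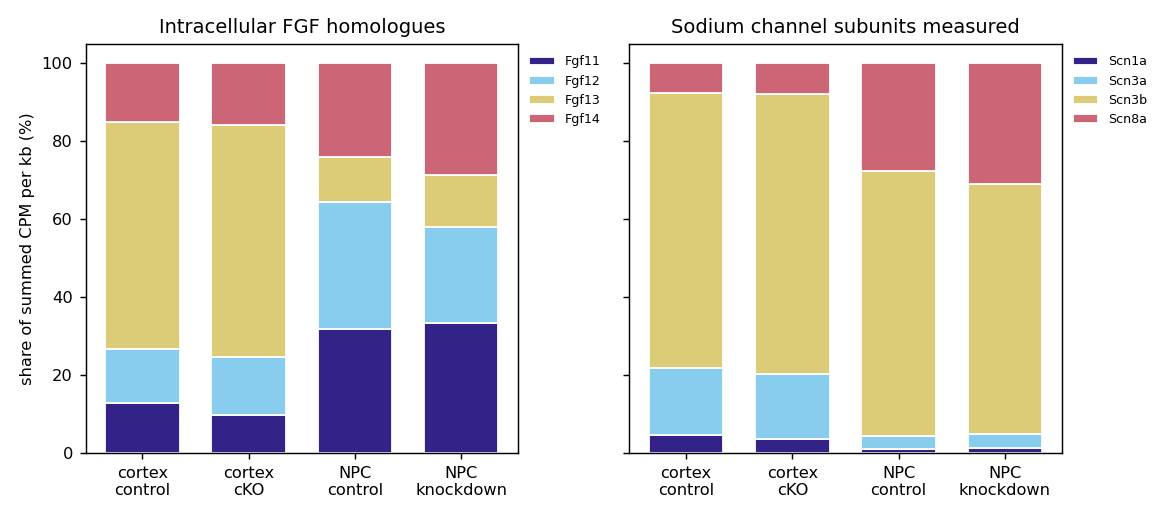
Mean share of each gene (% of the summed CPM per kb of its family, mean of 3 libraries) in the 4 groups, for the 4 intracellular FGF homologues and the 4 measured sodium channel genes. Fgf13 fills 58.1% of the homologue sum in control cortex and 11.5% in control NPC.

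In progenitors labelled knockdown 3 of the 4 homologues stood 1.67-fold to 1.93-fold above control, while the channel genes stood at or below it. Fgf14 read 11.3, 11.5 and 11.9 CPM in control NPC and 18.7, 27.3 and 21.1 CPM in knockdown NPC, replicates 1 to 3. The groups do not overlap, and the knockdown libraries spread far more than the controls. The log2 difference was 0.95 (SE 0.14), and 0.93 (SE 0.10) with the replicate numbers as a block. Knockdown replicate 2 was the highest, at 2.37 times its same-numbered control, beside 1.66 and 1.78 times in the other pairs. In the annotation 220 of the exon bases of Fgf14 (5.26%) also lie in Gm28932 on the opposite strand, and the labels do not state whether counting used strand.

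Fgf13 read 5.74, 5.64 and 4.59 CPM in control NPC and 10.9, 10.4 and 8.25 CPM in knockdown NPC. The groups do not overlap, and the ratios within pairs were close to each other at 1.89, 1.84 and 1.80 times. The log2 difference was 0.88 (SE 0.16), and 0.88 (SE 0.12) with the replicate block. Replicate 3 was the lowest library of both groups, and it was the male one of each by its Ddx3y level (84.3 and 90.9 CPM), while replicates 1 and 2 were female. Fgf13 is X-linked. A part of sex in its level was not tested, and the male pair alone had the ratio 1.80.

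Fgf11, another homologue, read 11.2, 11.3 and 11 CPM in control NPC and 21.2, 18.2 and 16.9 CPM in knockdown NPC. Its control libraries are nearly equal and lie below all knockdown libraries. The log2 difference was 0.74 (SE 0.11), and 0.73 (SE 0.09) with the replicate block, with ratios of 1.89, 1.61 and 1.54 within pairs. Fgf12 read 18.8, 27.2 and 24.5 CPM in control NPC and 18.8, 34.7 and 31.9 CPM in knockdown NPC, so the groups overlap. Its pairs had ratios of 1.0, 1.27 and 1.30, with no difference in pair 1, and the log2 difference was 0.27 (SE 0.23), or 0.25 (SE 0.08) with the replicate block. Replicate 1 was the lowest library of both groups for this gene.

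The channel genes lay at or below their controls. Scn3b read 40.3, 41.3 and 43.2 CPM in control NPC and 25.4, 39.1 and 36.0 CPM in knockdown NPC. The groups do not overlap, but knockdown replicate 2 lies just under the lowest control, and the pair ratios were 0.630, 0.948 and 0.834. The log2 difference was -0.32 (SE 0.15), and -0.33 (SE 0.09) with the replicate block. Scn8a read 45.3, 47.2 and 54.6 CPM against 46.3, 45.2 and 44.9 CPM (log2 difference -0.12, SE 0.08). The groups overlap, and only control replicate 3 stands apart. Scn3a read 3.65, 4.53 and 5.77 CPM against 3.68, 4.93 and 4.47 CPM (-0.10, SE 0.22). Scn1a read 2.34, 0.920 and 1.32 CPM against 1.76, 1.05 and 1.27 CPM (-0.18, SE 0.39), from 46, 32 and 35 counts in the knockdown libraries. For Scn1a, Scn3a and Scn8a the pairs differed in sign.

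**Figure D3:**
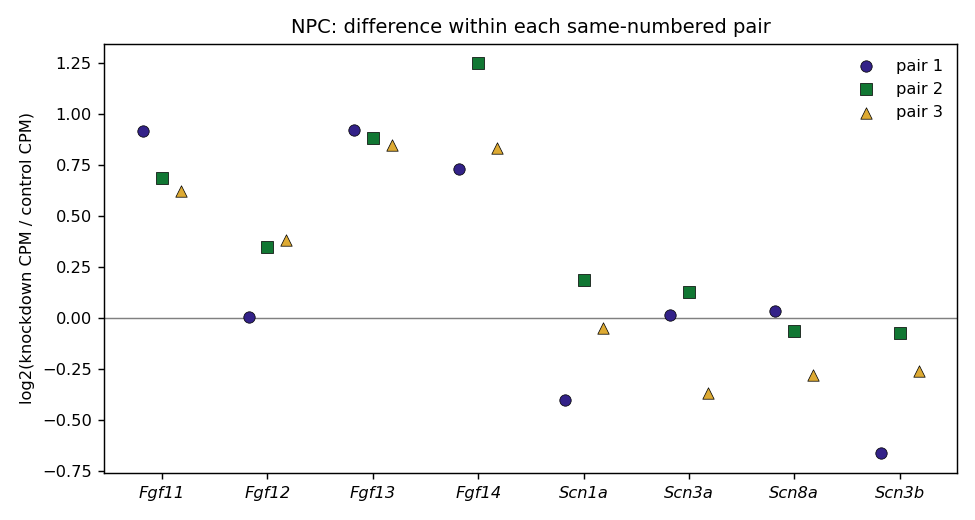
Log2 ratio of knockdown to control CPM within each same-numbered NPC pair for the 8 members (pair 1 circle, pair 2 square, pair 3 triangle); the line at 0 marks no difference. Fgf11, Fgf13 and Fgf14 lie at 0.62 or above in every pair, Fgf12 is near 0 in pair 1, and Scn3b is below 0 in every pair.

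Fgf11, Fgf13 and Fgf14 had knockdown libraries all above the controls, where 11.3% of 14258 tested genes did, and Scn3b had them all below, where 12.2% did. By pairs, Fgf11, Fgf13 and Fgf14 were higher in all 3 pairs (28.4% of tested genes were, by any amount), Fgf12 was level in pair 1 and higher in the others, and Scn3b was lower in all 3 (25.5%). These counts come from the comparison that chose the genes, and nothing is read from them. The summed level of the homologues was 10.8, 12.3 and 11.5 CPM per kb in control NPC and 17.2, 20.7 and 17.8 CPM per kb in knockdown NPC, and that of the measured channel genes 10.8, 11 and 12 CPM per kb in control and 8.05, 10.5 and 9.92 CPM per kb in knockdown NPC. The ratio of the homologue sum to the channel sum was 1.01, 1.11 and 0.966 in control NPC and 2.13, 1.96 and 1.80 in knockdown NPC, a description of the same values. Scn3b, the beta subunit, made up 67.8% of the channel sum in control NPC and 64.2% in knockdown NPC, and Scn2a is not part of it. The ratio is therefore not one of homologues to alpha subunits. In knockdown NPC the order by CPM per kb was Fgf11 (6.16), Scn3b (6.14), Fgf14 (5.35) and Fgf12 (4.59), each overlapping the next, then Scn8a (2.88), Fgf13 (2.45), Scn3a (0.350) and Scn1a (0.122) with no overlap between neighbours. The share of Fgf13 in the homologue sum was 13.3 ± 2.21% (SD, n = 3). In cortex the ratio was 1.02, 1.02 and 0.970 in controls and 1.02, 1.10 and 1.02 in cKO.

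Markers of other cell types were read beside these values. The neuronal list summed to 505 to 613 CPM in control NPC and 554 to 898 CPM in knockdown NPC, with 0 of 12 members at 0. Most of this sum was Gap43, a growth cone protein gene (448 ± 72.1 and 654 ± 193 CPM, SD, n = 3 each; log2 difference 0.54, edgeR adjusted p = 0.266, and 0.50 with adjusted p = 0.000241 under the replicate block). Of the 12 neuronal markers 1 was called by edgeR without the block, Syt1, where 1.89% of all tested genes were called. Syt1 fell by 1.20 (log2, SE 0.20, edgeR adjusted p = 0.0379). Its edgeR adjusted p was 0.0626 to 0.164 when any 1 of the 6 libraries was left out. With the block edgeR called 1 of the 12 higher, Gap43, and 2 lower, where 11.9% of all tested genes rose and 12.8% fell. The 2 were Syt1 (log2 difference -1.19, edgeR adjusted p = 0.000963) and Elavl3 (-0.30, edgeR adjusted p = 0.00431). The median of the list without the block was -0.03, beside 0.00 over all genes. Tubb3, a neuronal tubulin gene, stood at 12.5 ± 1.30 and 10.4 ± 1.40 CPM and Stmn2 at 0.294 ± 0.191 and 0.284 ± 0.152 CPM (SD, n = 3 each). The astrocyte list of 7 genes summed to 2170 to 2253 CPM in controls and 2412 to 2625 CPM in knockdown NPC, so that these groups do not overlap. Without the block 0 astrocyte genes were called by edgeR (3 of 7 at an unadjusted p under 0.05, where 18.3% of all tested genes were). With the block Gja1, S100b, Aqp4 and Aldh1l1 rose and Gfap fell, where 11.9% of all tested genes rose and 12.8% fell. The oligodendrocyte lineage list summed to 2819 to 2861 and 2963 to 3014 CPM, also without overlap. The vessel list of 5 genes summed to 15.2 to 20 and 9.38 to 11 CPM. Most of the vessel sum was Flt1 (14.5 ± 2.71 and 6.60 ± 1.23 CPM, SD, n = 3 each). Flt1 fell (log2 difference -1.15, edgeR adjusted p = 0.0387 without the block) and was not called when any 1 library was left out. The vessel list did not fall as a whole. Of its 3 tested genes the other 2 had positive log2 differences, Pecam1 (0.66, edgeR adjusted p = 0.502) and Kdr (0.02). The part of these cell types in the homologue values was not tested.

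In cortex labelled cKO no member was called, and the homologues did not move as one. Of the 8 members 0 passed an adjusted p of 0.05 by edgeR, where 0.171% of 15781 tested genes did, and 0 passed by DESeq2, where 1.97% did. At an unadjusted p under 0.05 there were 2, Fgf11 and Scn1a, both lower (10.9% of all tested genes). Fgf11 read 37.4, 38.4 and 31.1 CPM in controls and 29.9, 30.3 and 27.5 CPM in cKO cortex. The groups do not overlap, though control replicate 3 lies close to the cKO libraries (log2 difference -0.31, SE 0.10, 95% interval -0.54 to -0.08, edgeR adjusted p = 0.311). Scn1a read 42.4, 48.5 and 51.2 CPM in controls and 39.9, 39.7 and 38.2 CPM in cKO cortex. All cKO libraries lie below all controls and close to each other (log2 difference -0.29, SE 0.09, 95% interval -0.49 to -0.09, edgeR adjusted p = 0.260).

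The other homologues had small positive values in cKO cortex that did not pass. Fgf12 read 73.8, 77.1 and 85.4 CPM in controls and 87.9, 91.0 and 87.6 CPM in cKO cortex (log2 difference 0.15, SE 0.07, edgeR adjusted p = 0.496). Fgf13 read 210, 220 and 210 CPM and 229, 245 and 226 CPM (0.11, SE 0.06, edgeR adjusted p = 0.555). Both had cKO libraries just above the highest control. By Ddx3y, 1 of 3 control and 2 of 3 cKO libraries were female, and with sex as a covariate the log2 difference of Fgf13 was 0.095 (edgeR adjusted p = 0.737). Fgf14 read 52.8, 62.7 and 58.0 CPM and 67.7, 65.4 and 59.5 CPM, with overlap (0.13, SE 0.09, 95% interval -0.07 to 0.33, edgeR adjusted p = 0.649).

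The remaining channel genes stayed near 0. Scn3b read 352, 348 and 350 CPM in controls and 370, 354 and 366 CPM in cKO cortex (log2 difference 0.03, SE 0.06, 95% interval -0.10 to 0.17, edgeR adjusted p = 0.884). Scn8a read 93.6, 118 and 120 CPM and 123, 121 and 104 CPM (0.05, SE 0.10, edgeR adjusted p = 0.897), and Scn3a 166, 214 and 208 CPM and 202, 195 and 178 CPM (-0.05, SE 0.09, edgeR adjusted p = 0.875). Both overlap widely between the groups. Control replicate 1 was the lowest control for both.

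Taking library values alone, 5 of 8 members had cortex groups that do not overlap (Fgf12, Fgf13 and Scn3b higher, Fgf11 and Scn1a lower), where 17.6% of all tested genes did. Without the 2 libraries rich in Ttr, which leaves 2 against 2, it was 7 of 8, where 48.7% of genes did. With all 6 libraries the differences were at most 0.31 in size (log2), and none passed the test over all genes. The median log2 difference was 0.12 over the 4 homologues and -0.01 over the 4 channel genes, beside 0.00 over all tested genes. The interneuron markers summed to 519 to 562 CPM in control and 448 to 474 CPM in cKO cortex. Of these 9 genes edgeR called 0, and 5 had an unadjusted p below 0.05, where 10.9% of all tested genes did. The list did not move as one: 2 of the 9 had positive log2 differences, Sst (0.24) and Npy (0.02), and Gad1 had -0.06. The neuronal markers summed to 9562 to 9889 CPM in control and 9590 to 9650 CPM in cKO cortex. Of these 12 genes edgeR called 0, and 3 had an unadjusted p below 0.05, where 10.9% of all tested genes did. Log2 differences were positive for 3 of the 12, among them Elavl4 (0.17). The lowest were Nefm (-0.44, edgeR adjusted p = 0.104) and Nefl (-0.39, edgeR adjusted p = 0.177). The astrocyte list summed to 630 to 673 and 685 to 736 CPM, and the oligodendrocyte lineage list to 316 to 333 and 278 to 284 CPM. Of its 8 genes edgeR called 1, Gpr17, where 0.171% of all tested genes were called. Gpr17 fell (log2 difference -0.79, edgeR adjusted p = 0.0213, and 0.0781 with the replicate block). Without cKO replicate 1 edgeR called 0 genes in cortex, so this call was lost there. The part of these cell types in the lower values of Fgf11 and Scn1a was not tested.

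**Figure D4:**
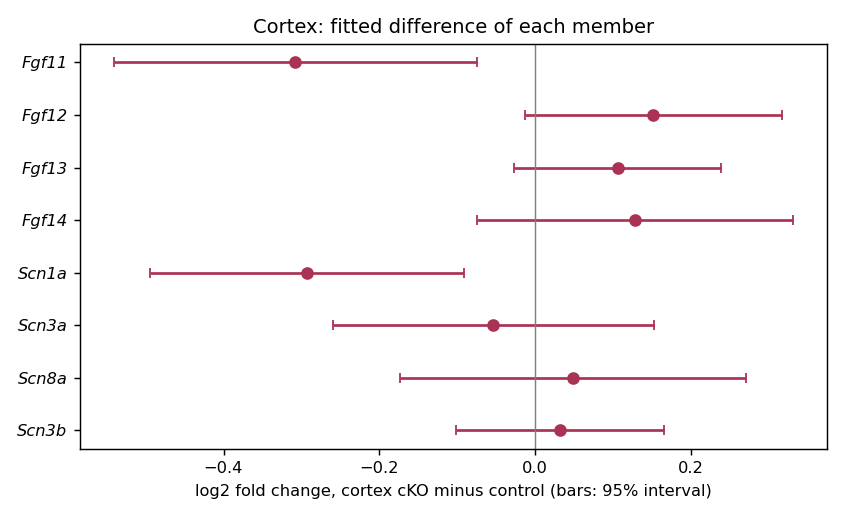
Fitted log2 fold change of cortex labelled cKO minus control for the 8 members (points) with 95% intervals (bars), from 3 libraries against 3. The intervals of Fgf11 and Scn1a lie below 0, those of the other 6 include 0, and none of the 8 passed after adjustment over all genes.

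Other genes of the pathway were taken from 8 lists: the other sodium channel subunits, the sodium leak channel complex, partners at the axon initial segment and node, regulators of the channels, secreted FGF ligands, FGF receptors, FGF response genes, and potassium and calcium channel subunits. In cortex 0 of 86 tested genes on these lists passed by edgeR, where 0.171% of all tested genes did, and 0 by DESeq2, where 1.97% did. In cortex 7 had an unadjusted edgeR p under 0.05 (10.9% of all tested genes). In NPC 1 of 80 passed by edgeR without the block, where 1.89% of all tested genes did, and DESeq2 called 9, where 7.13% did. At an unadjusted edgeR p under 0.05 there were 24 (18.3% of all tested genes). With the replicate block edgeR called 11 higher and 20 lower, beside 11.9% and 12.8% of all tested genes. The NPC shares over all tested genes apply to the NPC counts of each list below, by the same fit.

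The 1 gene called by edgeR without the block was Etv4, which DESeq2 called as well. It encodes an ETS transcription factor that FGF signalling switches on. It fell from 156 ± 4.67 to 120 ± 1.68 CPM in NPC (SD, n = 3 each; log2 difference -0.39, SE 0.05, edgeR adjusted p = 0.0192). The call was lost, at adjusted p of 0.0561 to 0.116, when control replicate 1, 2 or 3 or knockdown replicate 2 or 3 was left out, and kept without knockdown replicate 1 (0.0340). With the block Spry2 and Spred2, feedback inhibitors of the same pathway, fell as well (-0.24 and -0.26), and Spry4, another such inhibitor, rose (0.22). Of these 3 block calls, that of Spry2 was lost without pair 3 (edgeR adjusted p = 0.0594) and that of Spry4 without pair 2 or 3 (0.386 and 0.169). The 10 FGF response genes had a median of -0.06 without the block. In control cortex all 10 were lower than in control NPC (both NPC groups grew with bFGF), with a median log2 difference of -2.73 (38.4% of all tested genes were called lower). The receptor gene Fgfr1 stood at 296 ± 35.7 and 244 ± 29.1 CPM in control and knockdown NPC (SD, n = 3 each; -0.28, edgeR adjusted p = 0.253, and 0.000726 with the block), and Fgfr2 at 41.8 ± 5.96 and 39.3 ± 6.33 CPM (-0.10, not called in either fit). Among 18 secreted ligand genes 5 could be tested in NPC. Fgf1, a ligand without a secretion signal, had 0.38 (edgeR adjusted p = 0.547, and 0.34 with adjusted p = 0.00668 under the block), and Fgf2 had 0.01. The block call of Fgf1 was lost without pair 2 or 3 (edgeR adjusted p = 0.136 and 0.0881).

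Of 18 partners that hold sodium channels at the axon initial segment and node, 2 rose and 8 fell in NPC by edgeR with the block. Without the block edgeR called 0 (8 at an unadjusted p under 0.05), DESeq2 called 4 (Kcnq3, Camsap2, Vcan and Nfasc) and edgeR with all 12 libraries in 1 fit called 4. The median was -0.17, beside 0.00 over all genes. Nfasc, which encodes the adhesion protein neurofascin, went from 32.3 ± 1.47 to 23.4 ± 2.50 CPM (SD, n = 3 each; -0.47 in both fits, edgeR adjusted p = 0.0547, and 0.000306 with the block). Kcnq3, a subunit of the M-type potassium channel at the initial segment, went from 9.09 ± 1.29 to 5.29 ± 0.844 CPM (-0.79, edgeR adjusted p = 0.0696, and 0.000577 with the block). The scaffold gene Ank3 (ankyrin-G) had 0.13 (SE 0.22) and its spectrin partner Sptbn4 -0.06 (SE 0.31), neither called in either fit. Nfasc and Kcnq3, like the other genes named here for a call with the block, were picked after their values were seen.

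Of the other sodium channel subunits, 6 of 9 were tested in NPC and 0 were called without the block by edgeR or DESeq2 (2 at an unadjusted p under 0.05). With the block Scn7a and Scn11a rose and Scn4b fell, all at mean levels of 5.11 CPM or less. These 3 block calls became 2, 1 and 0 without pair 1, 2 or 3, and 1 by DESeq2 with the block. Scn4a, the skeletal muscle alpha subunit gene, stood at 0.0639 and 0.0831 CPM and was not tested. In the leak channel complex, whose pore is always open, the pore gene Nalcn stood at 5.52 ± 0.675 and 7.66 ± 1.64 CPM (0.46, edgeR adjusted p = 0.266, and 0.0347 with the block) and Unc79 had -0.09. The block call of Nalcn was lost without pair 2 or 3 (edgeR adjusted p = 0.404 and 0.0779) and by DESeq2 with the block (adjusted p = 0.147). Among 13 tested regulators edgeR without the block called 0 (4 at an unadjusted p under 0.05), and DESeq2 (Gsk3a) and the single fit of all 12 libraries called 1 each. With the block 3 rose and 2 fell by edgeR, and the number called was 1 without pair 2 and 3 without pair 3. Mapk8ip2, a scaffold protein gene whose product binds these homologues, went from 13.3 ± 1.10 to 17.8 ± 3.20 CPM (SD, n = 3 each; 0.42, edgeR adjusted p = 0.197, and 0.00541 with the block). Calm2, a gene for calmodulin, which binds next to the homologues on the channel tail, had 0.22 (edgeR adjusted p = 0.204, and 0.00917 with the block). The block call of Mapk8ip2 was lost without pair 2 (edgeR adjusted p = 0.0527) and that of Calm2 without pair 2 or 3 (0.0832 and 0.0967).

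Of 18 tested potassium and calcium channel subunits edgeR called 0 in NPC without the block (5 at an unadjusted p under 0.05), DESeq2 called 3 (Cacna1g, Cacna1c and Kcnma1), and edgeR with no count filter or with all 12 libraries in 1 fit called 1. Of all tested genes 18.3% had an unadjusted edgeR p under 0.05 and DESeq2 called 7.13%. With the block Cacna1g rose and 5 fell (Kcnd2, Cacna1h, Cacna1a, Cacna1c and Kcnma1), with a median of -0.20. With the block 11.9% of all tested genes rose and 12.8% fell. Cacna1g, a T-type calcium channel gene, went from 14.2 ± 2.01 to 25.5 ± 5.52 CPM (SD, n = 3 each; 0.83, edgeR adjusted p = 0.0655, and 2.27e-05 with the block). Kcnb2 had 0.30 (SE 0.56) and Kcnc1, a fast potassium channel gene, -0.07 (SE 0.10).

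The genes whose values over the 12 libraries lay nearest to those of Fgf13 and Fgf14 were listed by the root mean square difference in log2 CPM after the control mean of each system was set to 0, among 9842 genes. For Fgf13 they were Msmo1 (0.10), Adcyap1r1 (0.12), Pmvk (0.13), Plxnc1 (0.14) and Eln (0.14). For Fgf14 they were Adcyap1r1 (0.14), Plxna4 (0.16), Syne1 (0.17), Syn2 (0.17) and Fgf13 itself (0.18). Adcyap1r1, the receptor gene of the neuropeptide PACAP, is on both lists. It stood at 310 CPM in control NPC and 549 CPM in knockdown NPC. Fgf11 lay at 0.24 from Fgf13 and at 0.30 from Fgf14. These distances include the NPC difference that chose the genes and are a description.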

How the data were processed

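Total RNA was sequenced from 12 libraries, 3 in each of 4 groups. The values deposited are raw gene counts, 1 column per library, from reads aligned with HISAT2 to mm10 per the submitters' processing notes. No label names the counting program, its strand setting or its annotation. Groups and replicate numbers came from the sample titles. Positions and merged exon lengths came from GENCODE M21 (34065 of 34102 identifiers matched) and start regions from RefSeq (GRCm38.p6).

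Counts were normalised by TMM, filtered with filterByExpr (minimum count 10) and tested across all genes with the quasi-likelihood test of edgeR 4.0.16 (R 4.3.3) on the 6 libraries of each comparison, with Benjamini-Hochberg adjustment and a threshold of 0.05. Library levels are CPM of the library total. Log2 differences are cKO or knockdown minus control, or cortex minus NPC. After group means were removed, same-numbered NPC libraries correlated over genes at 0.48, 0.50 and 0.44, so the numbers pair them and NPC values are also given with the replicate block; cortex numbers did not (0.02, -0.16 and -0.02). Replicates of a group differed by more than counting noise (chi-square per degree of freedom of 7.52 or more), so none is a copy.

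Members, lists and markers were chosen with earlier results of these data known. Named genes were all members, Srsf10, list genes called by edgeR without the block or else the first 2 of a list, and the 5 genes nearest to Fgf13 and to Fgf14 with at least 5 CPM in each system; others were named after their values were seen, and some genes that the rule names are not reported here. Alternatives were DESeq2 1.42.0, RLE size factors, all 12 libraries in 1 fit, no filter on counts, the replicate block, sex (male above 10 CPM of Ddx3y), leaving out libraries above 1000 CPM of Ttr, and leaving out each library; the block for the control comparison, DESeq2 with the block, and the overlap count without libraries rich in Ttr were chosen after seeing the data. The fits were tested on simulated data before use. Figures used matplotlib 3.10.9.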

Additional observations from a re-analysis of the deposited data

Results flagged for a closer look

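Fgf11 and Scn3b had groups that do not overlap in both systems and lie in opposite directions, as did 2.08% of the 13532 genes tested in both. Fgf13 did not overlap in both and was higher in both, as 2.42% of genes lay the same way. The NPC values are those that chose the set. Fgf11 was lower in all cKO cortex libraries than in any control (-0.31, log2, not called by edgeR over all genes) and higher in all knockdown NPC libraries than in any control (0.74). Scn3b was higher in all cKO cortex libraries (0.032, not called) and lower in all knockdown NPC libraries (-0.32). The difference between the systems was not tested, since the NPC comparison chose the genes.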

How the results depend on the processing

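The 8 members kept their direction between control cortex and control NPC, and passed, under all 11 alternatives. In NPC the fitted values of the 4 homologues were above 0 and those of Scn8a and Scn3b below 0 under all 15 alternatives (Fgf11 0.65 to 0.81, Fgf13 0.79 to 0.99, Fgf14 0.77 to 1.06, Fgf12 0.11 to 0.50, Scn3b -0.47 to -0.15), while Scn1a and Scn3a changed sign. The NPC comparison chose the set and its alternatives refit the same libraries, so these NPC signs are description and no test. In cortex no alternative of 13 called a member, and Scn3a and Scn8a changed sign.

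The 27 genes called in cortex became 156 with no count filter, 310 by DESeq2, 49 with all libraries in 1 fit, 12 with sex as a covariate and 1 with the replicate block, whose numbers do not pair these libraries. They ranged from 0 to 28 with 1 library left out, the lowest without cKO replicate 1 (0 by edgeR, where 1096 had an unadjusted p below 0.05), then cKO replicate 3 (1) and cKO replicate 2 (16). The 270 genes called in NPC became 957 by DESeq2, 654 with all libraries in 1 fit, 3522 with the replicate block and 2399 by DESeq2 with it, a setting chosen after seeing the data. With the block and without replicate 1, 2 or 3 they were 4376, 2170 and 1636. They ranged from 47 to 304 with 1 library left out, at 95, 55 and 47 without control replicate 1, 2 or 3 and 69 and 176 without knockdown replicate 2 or 3.

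Some differences changed sign, none of which edgeR called without the block on all 6 libraries. Without 1 library the cortex values (log2) were Scn8a -0.059 to 0.12, Srsf10 -0.0092 to 0.11, Calm2 -0.13 to 0.0059, Fgfr2 -0.042 to 0.11, Etv4 -0.071 to 0.048, Scn3a -0.16 to 0.011, Unc79 -0.15 to 0.10, Ank3 -0.19 to 0.040, Fgfr1 -0.013 to 0.22. Unc79 had 0.0069 with the replicate block and 0.070 with sex. Without the libraries rich in Ttr, Scn3a had 0.064, Unc79 0.12 and Ank3 0.12. Without 1 library the NPC values were Srsf10 -0.087 to 0.0026, Fgf2 -0.12 to 0.14, Kcnb2 -0.36 to 0.63, Sptbn4 -0.40 to 0.13, Ank3 -0.13 to 0.30, Kcnc1 -0.17 to 0.0051, Fgf1 -0.020 to 0.60, Fgfr2 -0.22 to 0.030. With the replicate block and without replicate 1, Fgf2 had -0.014. Without replicate 2 Ank3 had -0.017, and without replicate 3 Sptbn4 had 0.019. The cause of these changes was not tested. Scn1a, with 24 to 66 counts in a NPC library, has the fewest counts of the members.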
